A study of Homo sapiens with 6 samples.

Results

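The HOX gene clusters were examined for ZIC2 binding in H1 (WA01), a long-established line of human embryonic stem cells. The clusters were set by position on hg19: HOXA on chromosome 7 from 27.13 to 27.25 Mb, HOXB on chromosome 17 from 46.60 to 46.81 Mb, HOXC on chromosome 12 from 54.33 to 54.45 Mb and HOXD on chromosome 2 from 176.94 to 177.06 Mb. The 38 HOX genes considered comprise 10 in HOXA, 10 in HOXB, 9 in HOXC and 9 in HOXD. Of the 16077 different ZIC2 regions in the deposited lists, 2 overlapped a cluster and 10 lay within 200 kb outside one. No measured value entered this choice, although it was made with earlier results of these data known.

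ZIC2 binding was mapped by CUT&Tag, an assay that brings a transposase to the bound protein through antibodies and sequences the DNA fragments it releases there. There were 6 libraries. With the ZIC2 antibody, 2 came from wild-type H1 cells (WT) and 2 from H1 cells carrying a Cas9-made ZNF263 knockout, labelled homogeneous (KO). With normal rabbit IgG there was 1 library per genotype. ZNF263 encodes a DNA-binding zinc-finger protein. The labels do not say whether the knockout cells derive from 1 clone or whether replicates were separate cultures.

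The authors deposited 1 list of regions per genotype, with 12966 regions in WT and 7231 in KO. The lists give positions only, so the read depth is unknown, no value has a replicate error, and no test between genotypes could be made. All intervals below are 95% intervals for counting error only. Absence from a list means that the region was not called, and no loss of binding was measured. Expression was not measured, so the labelled cell type could not be checked against markers.

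HOX genes encode homeodomain transcription factors that give cells their identity along the head-to-tail axis of the embryo. The genes of a cluster stand in the order in which they act along that axis, with the low-numbered (anterior) genes at one end and the high-numbered (posterior) genes at the other. In human embryonic stem cells the clusters are known as large Polycomb-repressed domains, silent until differentiation. ZIC2, a zinc-finger protein, is a transcriptional regulator in pluripotent and early neural cells.

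The HOX clusters are too short to show whether they hold fewer called ZIC2 regions than sequence of their length elsewhere. Together the 4 windows span 570 kb. The WT list held 2 regions there and the KO list 0, against 2.43 and 1.36 at the genome-wide densities. The exact Poisson interval for a count of 0 reaches 3.69 regions, so no count could have shown a lower number. One WT region was in HOXA, 1 was in HOXC, and both lists were empty across HOXB and HOXD. The 2 regions, both of the minimum width, covered 300 bp or 0.0526% of the 4 windows. This was lower than the WT coverage of 23 chromosomes (0.143%) and of the sequence within 200 kb outside the clusters (0.163%). The KO list covered 0.0% of the windows, 0.0951% of the chromosomes and 0.0768% of the sequence within 200 kb. Coverage of the windows rests on these 2 regions, has no interval, and its difference from the other values was not tested.

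The HOXA region lay on chromosome 7 from 27222873 to 27223022. It was 150 bp wide, which is the minimum width in the lists. It stood 92.9 kb from the low-coordinate bound of the window, or 77.5% of the way along it. In the RefSeq order on chromosome 7 (GRCh38, used for order only), the genes run from HOXA2, HOXA3 and HOXA4, which act in the hindbrain and neck, through HOXA5, HOXA6, HOXA7, HOXA9 and HOXA10 to HOXA11 and HOXA13, which pattern the limbs and the urogenital tract. The region was thus in the part of the window nearer to the posterior genes.

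The HOXC region lay on chromosome 12 from 54378701 to 54378850 and was also 150 bp wide. It stood 48.7 kb from the low-coordinate bound, or 40.6% of the way along the window. The HOXC genes run the other way on the chromosome, from the posterior HOXC13, HOXC12, HOXC11 and HOXC10 through HOXC9 and HOXC8 to HOXC6, HOXC5 and HOXC4. Which gene, exon, intron or intergenic stretch either region falls in was not analysed here, because the gene table at hand is of another build.

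HOXB held no region of either list over 210 kb. Its genes run from HOXB1, a regulator of hindbrain segment identity, through HOXB2 to HOXB9, with HOXB13, a gene of the prostate and tail end, set apart from the others at the high-coordinate end. HOXD, with HOXD13, HOXD12, HOXD11, HOXD10 and HOXD9, known from limb and digit patterning, followed by HOXD8, HOXD4, HOXD3 and HOXD1, was empty over 120 kb. The exact Poisson interval for a count of 0 reaches 3.69 regions, which is 17.6 per Mb in HOXB and 30.7 per Mb in HOXD. The bound of HOXB mattered for its count: a WT-only region of 150 bp on chromosome 17 from 46598273 to 46598422 ended 1.58 kb outside the window.

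**Figure D1:**
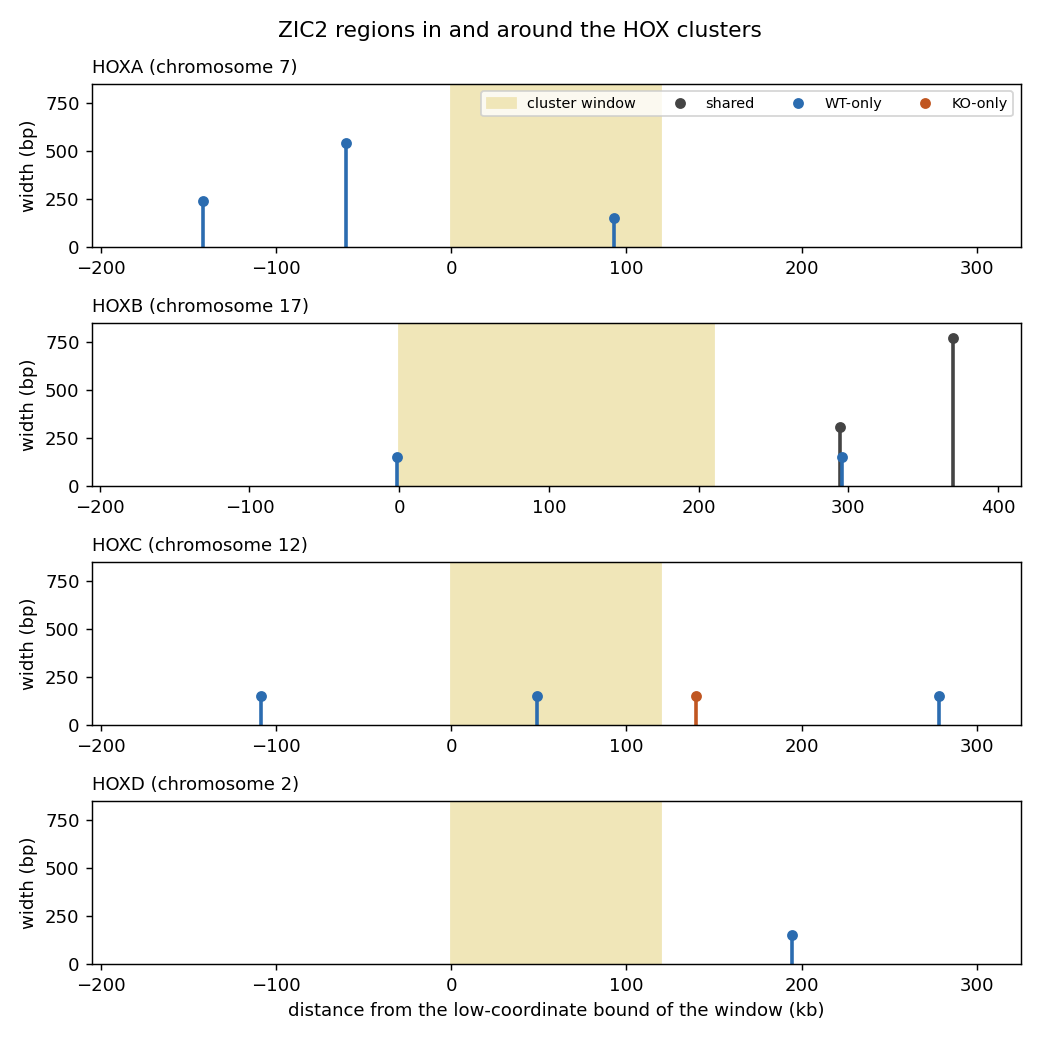
Each panel is 1 HOX cluster with 200 kb on each side. The x axis is the distance from the low-coordinate bound of the window in kb, the y axis the width of each region in bp, and colour gives the class (called in both lists, in WT only or in KO only). Inside the shaded windows stand 2 WT-only regions of 150 bp, and the 2 shared regions lie beyond the high-coordinate end of HOXB.

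Neither region inside the clusters was called in KO. Across the genome, 68.2% of WT regions were not called in KO. The exact Clopper-Pearson lower bound for 2 of 2 is 15.8%. With 2 regions no outcome could have stood apart from the share of the whole list, so the 2 shares cannot be compared. Among the 3513 WT regions of 150 bp, 99.6% (99.3 to 99.8) were not called in KO. Both HOX regions belong to that width class, which makes up 27.1% of the WT list. In the KO list, 99.0% of regions of 150 bp were likewise not called in WT, and all 4120 overlapping pairs had identical edges. Width and class are thus not separate features of these lists, and the share by width is a description only. In the whole KO list 43.0% of regions were not called in WT, a share that has no value inside the clusters, where the KO list held 0 regions.

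The densities behind these numbers were as follows. Over the 23 chromosomes (1 to 22 and X) the WT list held 4.27 regions per Mb, counted up to the last region of each chromosome, against 3.51 per Mb in the clusters (exact Poisson interval 0.425 to 12.7). At the densities of their own chromosomes the windows would hold 3.56 WT regions, mainly because chromosome 17 held 9.52 WT regions per Mb. The KO list had 2.38 regions per Mb over the chromosomes, and the densities of the windows' own chromosomes give 2.05 regions. The exact Poisson interval of the 0 KO regions observed reaches 6.47 per Mb. This limit for a count of 0 exceeds the density over the chromosomes in both lists. No count in the windows could therefore have shown a lower density than the genome's.

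Windows with few or no regions were also common elsewhere. When the 23 chromosomes were cut into tiles of 120 kb, the length of the HOXA, HOXC and HOXD windows, 69.3% of 25234 tiles held 0 WT regions and 18.8% held 1. For KO, 80.7% of these tiles held 0. Of the 210-kb tiles, the length of the HOXB window, 57.0% held 0 WT regions and 71.2% held 0 KO regions. These shares include unsequenced gaps. Counting only tiles with a region inside or within 200 kb, a setting chosen after seeing the data, 55.0% of 120-kb tiles and 39.9% of 210-kb tiles held 0 WT regions. The empty HOXB window matched a smaller share of tiles than the empty HOXD window did, as longer tiles are less often empty.

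**Figure D2:**
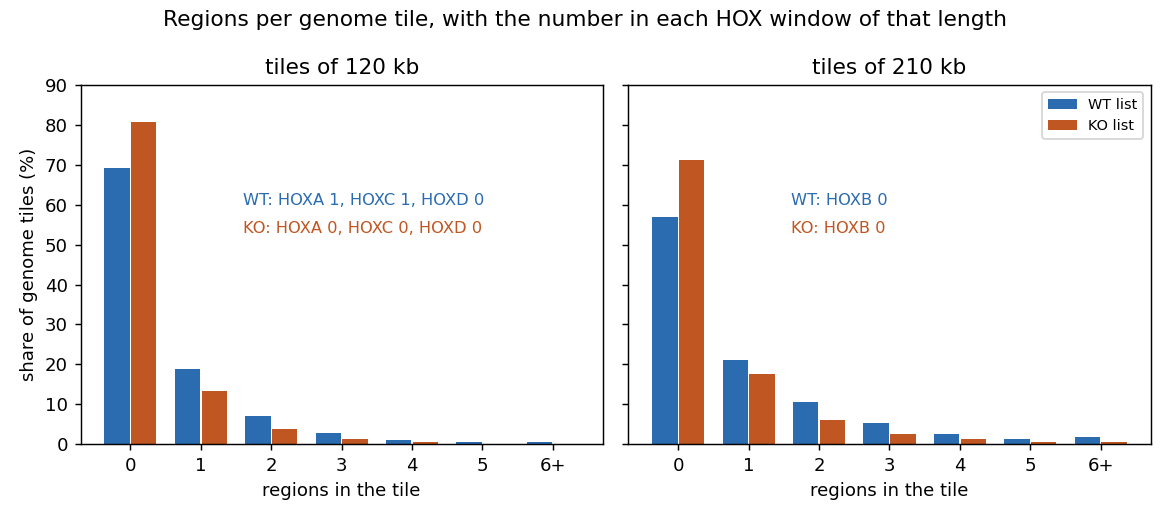
The bars give the share of genome tiles (y axis, %) with each number of regions (x axis), for tiles of 120 kb and of 210 kb in the WT and KO lists. The printed numbers are those of the HOX windows of that length, and 0 is the most frequent number in both lists, at 69.3% of 120-kb tiles for WT and 80.7% for KO.

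The flanks, 200 kb on each side of a cluster, held 9 WT and 3 KO regions over 1.6 Mb. The WT density was 5.63 per Mb (Poisson interval 2.57 to 10.7) and the KO density 1.88 per Mb (0.387 to 5.48). At the densities of their own chromosomes the flanks would hold 9.0 WT and 5.05 KO regions. Of the 9 WT regions 7 were not called in KO (77.8%, exact interval 39.99 to 97.2), and of the 3 KO regions 1 was not called in WT (33.3%, 0.840 to 90.6). Both intervals include the shares of the whole lists. With only 3 KO regions, any outcome would have included the share of the whole KO list.

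The widest flank region was shared by both lists. It lay on chromosome 17 from 46969659 to 46970429, 160 kb beyond the high-coordinate end of HOXB, with a width of 771 bp, and 14.9% of all shared regions were at least as wide. The other shared region, of 308 bp, was on the same side from 46894382 to 46894689, 84.4 kb from the window, and 74.5% of shared regions were at least as wide. A WT-only region of 150 bp followed it from 46895850 to 46895999. These were the only shared regions within 200 kb of any cluster, and both flanked HOXB.

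Next to HOXA, both flank regions were WT-only and on the low-coordinate side, where the anterior end of the cluster lies. The region from 27070080 to 27070620 on chromosome 7 was 541 bp wide and 59.4 kb outside the window. Only 7.18% of WT-only regions in the genome were at least as wide. The other, from 26988471 to 26988708, was 238 bp wide and 141 kb outside. The high-coordinate side of HOXA was empty in both lists over its 200 kb.

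Next to HOXC, the regions were all of 150 bp and none was shared. Those from 54221430 to 54221579 and from 54608735 to 54608884 on chromosome 12 were WT-only, 108 kb and 159 kb outside the window. The region from 54469708 to 54469857 was the only KO-only region near any cluster, 19.7 kb beyond the high-coordinate end, where HOXC4 lies. Next to HOXD, 1 region was called in all, a WT-only region of 150 bp on chromosome 2 from 177134550 to 177134699. It stood 74.5 kb beyond the end at which HOXD1 lies.

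Farther out, more ZIC2 regions per Mb were called around HOXB and HOXC than inside and near them, with wide intervals. Taking each cluster with its 200-kb flanks, the WT list held 11 regions in 2.17 Mb (5.07 per Mb, Poisson interval 2.53 to 9.07). From 200 kb to 1 Mb outside, it held 76 regions in 6.4 Mb (11.9 per Mb, 9.36 to 14.9). The KO list held 3 (1.38 per Mb, 0.285 to 4.04) and 43 regions (6.72 per Mb, 4.86 to 9.05). Pooled over the 4 clusters, the near and far intervals did not overlap in either list. They cover counting error only, and these distances were chosen after seeing the data. The difference was not tested, since neighbouring regions are not replicates.

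By distance, the WT density was 2.50 per Mb in the first 50 kb outside the windows, from 1 region. It was 10.0 per Mb from 50 to 100 kb, from 4 regions, and 5.00 per Mb from 100 to 200 kb, also from 4. From 200 to 500 kb it was 14.2 per Mb, from 34 regions, and from 500 kb to 1 Mb 10.5 per Mb, from 42. The first 3 steps rest on so few regions that their intervals overlap those of the outer ones. In KO the densities were 2.50, 2.50 and 1.25 per Mb in the first 3 steps, from 1 region each, and then 6.25 and 7.0 per Mb.

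**Figure D3:**
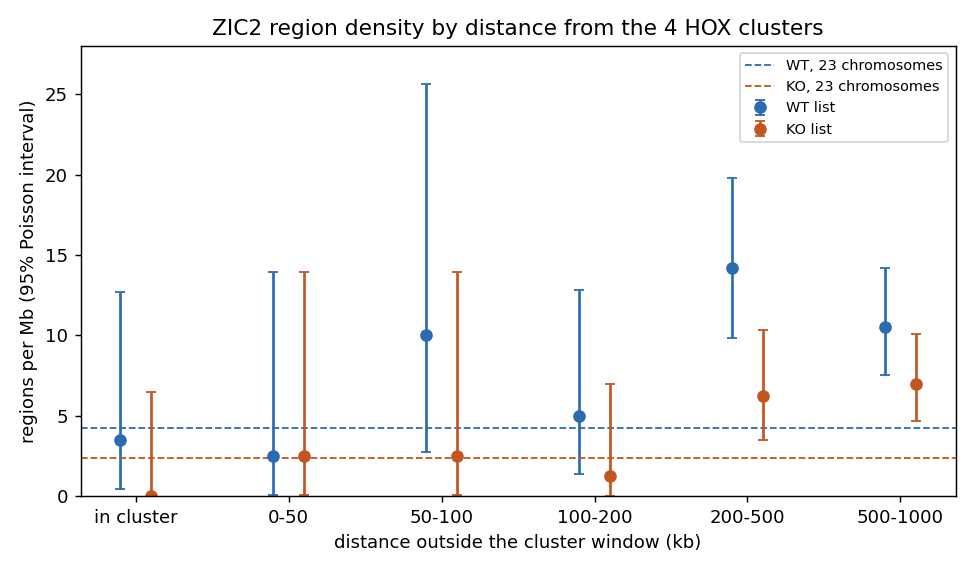
Regions per Mb (y axis) inside the 4 HOX windows and by distance outside them in kb (x axis, steps of unequal length), with exact Poisson 95% intervals. Points are the WT and KO lists over all 4 clusters, and dashed lines the mean over 23 chromosomes (4.27 and 2.38 per Mb). The WT points from 200 kb outwards, at 14.2 and 10.5 per Mb, lie above the dashed line with their whole interval.

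In the WT list, the contrast came mostly from HOXB and HOXC. Around HOXC the WT list held 36 regions from 200 kb to 1 Mb outside (22.5 per Mb, 15.8 to 31.1) and 3 in the cluster with its flanks (5.77 per Mb, 1.19 to 16.9). Around HOXB the numbers were 26 (16.3 per Mb, 10.6 to 23.8) and 4 (6.56 per Mb, 1.79 to 16.8). The near and far intervals overlap for each of these clusters. Around HOXA the WT list had 9 regions far (5.63 per Mb) and 3 near (5.77 per Mb). Around HOXD it had 5 far (3.13 per Mb) and 1 near (1.92 per Mb). The KO list had fewer regions per Mb near than far at each cluster, but the near and far intervals overlap at each. It held 0 near and 3 far at HOXA, 2 and 18 at HOXB, 1 and 21 at HOXC, and 0 and 1 at HOXD. At HOXA and HOXD the interval of the 0 near regions reaches 7.09 per Mb. The far KO densities there, 1.88 and 0.625 per Mb, lie below that limit. Without HOXC, the WT density from 200 kb to 1 Mb fell from 11.9 to 8.33 per Mb and the KO density from 6.72 to 4.58 per Mb.

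**Figure D4:**
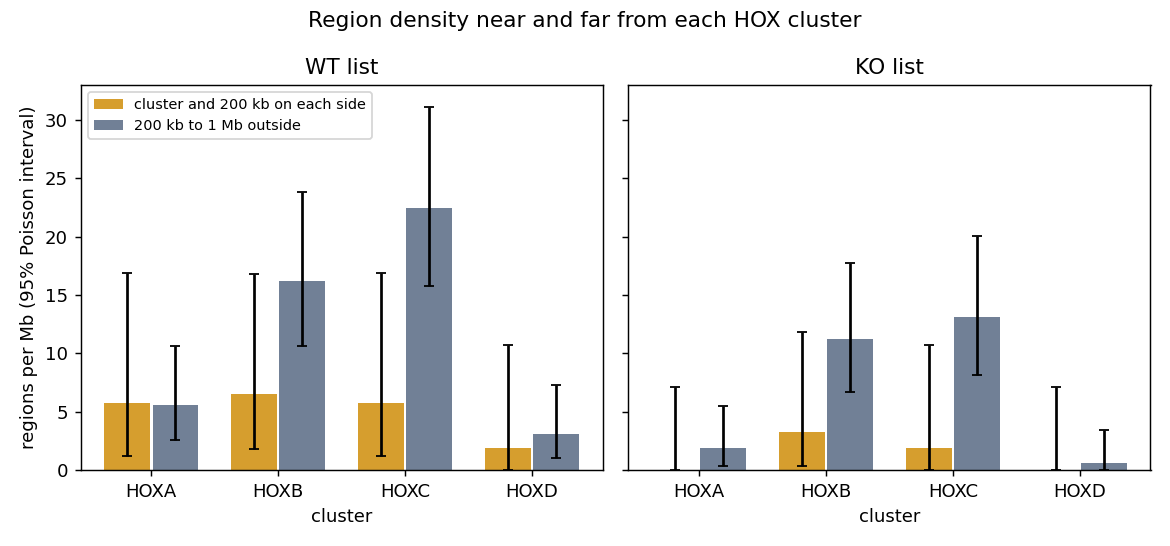
Regions per Mb (y axis) for each HOX cluster (x axis) in the WT list and the KO list. Bars compare the cluster with 200 kb on each side to the sequence from 200 kb to 1 Mb outside, and error bars are exact Poisson 95% intervals. The far bars of HOXB and HOXC, at 16.3 and 22.5 per Mb in WT, are the tall ones, and those of HOXA and HOXD stand at 5.63 and 3.13 per Mb.

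The far regions were of all 3 classes. From 200 kb to 1 Mb outside, 14 regions around HOXC were shared, 22 were WT-only and 7 were KO-only. Around HOXB the numbers were 13, 13 and 5. Around HOXA 1 region was shared, 8 were WT-only and 2 were KO-only, and around HOXD 0 were shared, 5 were WT-only and 1 was KO-only. The share of far WT regions not called in KO was 88.9% (51.8 to 99.7) around HOXA, 50.0% (29.9 to 70.1) around HOXB, 61.1% (43.5 to 76.9) around HOXC and 5 of 5 around HOXD (lower bound 47.8%). These intervals overlap, and no difference between clusters was tested. In all 63.2% of the far WT regions were not called in KO (exact interval 51.3 to 73.9), against 81.8% (48.2 to 97.7) in the clusters with their flanks. Each of these intervals includes the 68.2% of the whole list.

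The stretches without a region that hold the empty windows are given as a description. Such a stretch is at least as long as the window by construction, so its length is no separate result. In the WT list, the stretch holding HOXD ran on chromosome 2 from 176033288 to 177134549, over 1101 kb. As long or longer were 5.08% of the stretches there, and these make up 36.3% of the chromosome. The stretch holding HOXB ran over 296 kb, from 46598423 to 46894381 on chromosome 17. There 8.06% of stretches were as long, and they make up 44.6% of the chromosome.

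In the KO list, which has fewer regions, the stretches were longer. HOXA lay in one of 2603 kb on chromosome 7, from 26241249 to 28843901, and HOXD in one of 2029 kb, from 175652905 to 177681866. As long or longer were 2.97% of KO stretches on chromosome 7 and 6.47% on chromosome 2, making up 27.6% and 43.1% of those chromosomes. The KO stretch around HOXB was 656 kb and that around HOXC 348 kb, with 5.24% and 26.8% of stretches as long. Stretches of these lengths thus took up a large part of each chromosome.

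The HOX promoters were described by sequence, as a feature that the choice of members did not use. The RefSeq promoter table (GRCh38.p14, from 250 bases before to 50 bases after a start) held 27 promoters of 20 of the 38 genes, with 26 different sequences, since HOXC4 and HOXC5 share one and HOXA3 has 7. Entries were lacking for HOXA5, HOXB2 to HOXB9, HOXB13, HOXC6, HOXC8 to HOXC13 and HOXD9. The ZIC2 regions could not be placed on these promoters, which are of another build.

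CG dinucleotides, the sites of DNA methylation, were counted in each promoter. The median HOX promoter held 22 CG dinucleotides, against 14 for all 35116 promoters in the table, at a similar GC content (58.0% against 58.7%). Above 14 were 20 of the 27 and below it 7. With 1 value per gene the median over 20 genes was 23, and without the 7 promoters of HOXA3 it was 23.5. HOXB is represented by 1 promoter only, and the difference was not tested. The range ran from 0 in an internal promoter of HOXA3 to 44 in the promoter of HOXA13. Both are shown 5′ to 3′ along the gene, as the extremes of this range, with CG in capitals.

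HOXA3 (minus strand, chr7:27119546-27119845, GRCh38.p14): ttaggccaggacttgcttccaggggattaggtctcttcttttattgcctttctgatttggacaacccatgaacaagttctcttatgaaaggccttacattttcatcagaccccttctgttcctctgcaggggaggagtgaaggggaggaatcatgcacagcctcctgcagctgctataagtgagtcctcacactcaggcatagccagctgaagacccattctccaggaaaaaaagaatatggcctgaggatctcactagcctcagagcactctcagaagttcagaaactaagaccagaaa
HOXA13 (minus strand, chr7:27200042-27200341, GRCh38.p14): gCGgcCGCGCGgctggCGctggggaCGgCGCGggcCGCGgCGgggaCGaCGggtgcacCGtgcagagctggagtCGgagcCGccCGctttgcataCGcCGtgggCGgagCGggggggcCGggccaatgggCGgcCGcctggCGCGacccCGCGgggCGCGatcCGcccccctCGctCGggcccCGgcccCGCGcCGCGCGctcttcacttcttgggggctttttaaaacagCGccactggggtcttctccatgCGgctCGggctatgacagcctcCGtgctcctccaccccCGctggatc

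Exact matches of CAGCAGG, a core of the ZIC family motif, and of GGAGGAGG, a core of the ZNF263 motif, were searched on both strands. Of the 27 HOX promoters 0 held either. Over all promoters in the table, 10.5% held CAGCAGG and 10.9% held GGAGGAGG. Taking 3 counts as the limit for a count of 0, a share of up to 11.1% is allowed. This limit lies above the share of all promoters for each motif taken singly. By it, 27 promoters are too few to show a lower share, even with 0 matches. The share of all promoters holding either motif was not computed, so the motifs together were not compared. The limit also treats the 27 promoters as independent, although 7 belong to HOXA3, and HOXC4 and HOXC5 share a sequence.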

How the data were processed

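CUT&Tag for ZIC2 gave 2 libraries per genotype and the IgG control 1 per genotype. The authors deposited 1 list per genotype with 3 columns (contig, start and end) and no score. The submitters' processing notes name Bowtie2, Picard and the build hg19. Not given in the sources used here are the peak caller, its threshold, the use of IgG and the combination of replicates. IgG libraries were not analysed here. Python 3.11.15 with pandas 2.3.3 read the lists, and intervals (exact Poisson for numbers, exact Clopper-Pearson for shares) came from scipy 1.17.1. Regions overlapping by at least 1 bp were called shared, otherwise WT-only or KO-only. All 4120 overlapping pairs had identical edges, so the width of a shared region is 1 value common to both lists. Every region in a cluster is named, and in the flanks the rule named the widest 3 of each class, but all 10 were named after their values were seen. Coordinates count from 1. The members and rules were chosen with earlier results of these data known. The counting routines were tested on simulated data. Planned placement on gene starts and motifs inside regions were not run for want of an hg19 genome, and motifs were counted in RefSeq promoters instead, a choice made after seeing the data, as were the tiles' near setting, the distance steps and the region-free stretches.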

Additional observations from a re-analysis of the deposited data

How the results depend on the processing

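Requiring 50% reciprocal overlap could change no class, because all overlapping pairs had identical edges. Counting edges within 1 kb as shared left every share within its interval and does not enter the densities. Joining regions within 1 kb left every share and density within its interval. With regions wider than 150 bp, or no narrower than the median of the same list, the clusters held 0.0 WT regions per Mb and 0.0% coverage, so the number inside them rests on 2 regions of the minimum width; no share or median width could then be given. The WT flank density was 2.50 and 1.88 per Mb under these settings, and the share of flank KO regions not called in WT was 0.0% under both. With flanks of 500 kb the WT density was 10.8 per Mb and that share 16.7%. Bounds moved outwards by 10 kb took in the region beside HOXB and raised WT coverage from 0.0526% to 0.0692%. Coverage was 0.0333% without HOXA or HOXC, 0.0833% without HOXB and 0.0667% without HOXD. Each of these WT values lay below the 0.143% of the 23 chromosomes, a difference that was not tested. Without HOXB, 100% of flank WT and of flank KO regions were found in 1 list, the KO share resting on the 1 region beside HOXC. Without HOXC, 0.0% of flank KO regions were found in 1 list, a share resting on the 2 shared regions beside HOXB. With 0 KO regions in the clusters, the ratio of KO to WT regions was 0 wherever it could be given. No paired analysis was possible because only 1 list per genotype was used, with no values per library, and no replicate could be left out. With no read counts, a weak region cannot be told from an uncalled one.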
